A study of Mus musculus with 4 samples.

Results

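The genes of the mouse respiratory chain and ATP synthase were followed in EO771 cells, a mammary carcinoma line from C57BL/6 mice, across 2 libraries labelled BML-210 and 2 labelled untreated. Members were all genes of the deposited count table whose names begin as the names of complex I to V subunits and their eponymous assembly factors do (Nduf, Sdh, Uqcr, Uqcc, Cox, Atp5 and the protein genes of the mitochondrial genome), plus Cyc1 and Cycs. Names ending in -ps were left out. This gave 134 of 56350 gene entries, 121 on nuclear chromosomes or scaffolds and 13 on the mitochondrial genome, with 129 different names because 5 names have a second entry. The libraries labelled BML-210 came from cells cultured for 48 h with the benzamide histone deacetylase inhibitor BML-210 at 1.0 µM. The libraries labelled untreated came from the same line after 48 h, cells that the protocol text calls vehicle-treated. Nothing in the labels says whether the 2 libraries of a group came from separate cultures, so p-values measure the spread between these libraries, which may be technical. The library codes begin with V for the libraries labelled BML-210 and with D for those labelled untreated. No targeted gene checks the labels, and every direction below rests on them.

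Respiratory complexes I, III and IV pass electrons from NADH to oxygen through ubiquinone and cytochrome c and pump protons, complex II feeds in electrons from succinate, and complex V uses the proton gradient to make ATP. The chain is built from 2 genomes: the mitochondrial genome encodes 13 subunits, most of them core ones, in long polycistronic transcripts, and nuclear genes encode all other subunits, the whole of complex II, and the assembly factors that insert cofactors and join modules without staying in the finished enzyme. Core subunits carry the redox centres or the catalytic sites, and accessory subunits, many of them very small, surround them.

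The libraries labelled BML-210 held 13167893 and 13961743 counts on genes, against 16534667 and 13855061 in those labelled untreated. A count of 3, taken as the floor of detection in a single library, corresponds to 0.228 and 0.215 CPM, counts scaled to a common library size, in the BML-210 libraries and to 0.181 and 0.217 CPM in the untreated ones, a limit that covers counting error only. Vim, high in carcinoma cells of mesenchymal character, stood at 1675 and 1642 CPM, against 1718 and 1689 CPM. Of the epithelial markers Krt8 was lower (28.3 and 33.0 CPM, against 43.5 and 49.1 CPM), while Krt18, Epcam, Krt19 and Cdh1 stayed under 1 CPM in every library. Among leukocyte markers Cd68 was lower (32.03 and 29.98 CPM, against 159 and 165 CPM), and Ptprc, Csf1r, Tyrobp, C1qb and Cd3e stayed under 1 CPM. The 8 leukocyte markers summed to 34.5 to 35.5 CPM in the BML-210 libraries and 167 to 171 CPM in the untreated ones, and their part in the results below was not tested. Among fibroblast markers Pdgfra was lower (94.1 and 100.5 CPM, against 155 and 157 CPM), Col1a1 had 21.5 and 22.3 CPM, against 20.5 and 25.3 CPM, Dcn stayed under 1 CPM and Lum was at 0. Of the fat cell markers Fabp4 had 20.9 and 22.2 CPM, against 20.1 and 22.7 CPM, and Adipoq was at 0. The part of these markers in the results was not tested either.

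In the libraries labelled BML-210, many more nuclear-encoded respiratory chain genes were lower than higher, whereas more mitochondrial-encoded ones were higher than lower. Genes with enough counts to test numbered 114 members, 101 nuclear and 13 mitochondrial, of 14455 genes tested in all. Of the 101 nuclear members, 46 were lower, 4 were higher and 51 did not pass (quasi-likelihood test of edgeR, called below 0.05 after adjustment over all tested genes). Over all tested genes 23.5% were called lower and 22.9% higher. The median log2 fold change of the nuclear members was -0.17, against -0.0025 for all tested genes. Both BML-210 libraries lay below both untreated libraries for 58 of the 101 nuclear members, against 36.1% of all tested genes, and above them for 8, against 35.2%. Of the 13 mitochondrial members, 6 were higher, 2 were lower and 5 were not called, with a median of 0.08. That median was 0.05 without BML-210 replicate 1, 0.14 without untreated replicate 1 and 0.22 without untreated replicate 2. DESeq2, run as an alternative without the low-count filter, called 28 nuclear members lower, and on the same 14455 genes, an alternative added after seeing the data, it called 24. In either direction these fits called 4631 of 32611 and 4335 of 14455 genes. Most changes were small: 3 of 101 nuclear members passed the test with a change of 2-fold or more, against 6.68% of all tested genes; 1 of the 3, and of the 4 that were higher, is Cox6a2, which passed the low-count filter through the BML-210 libraries alone. Counts are relative to each library's total, so that fewer cells expressing a gene and less of its RNA per cell cannot be told apart.

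**Figure D1:**
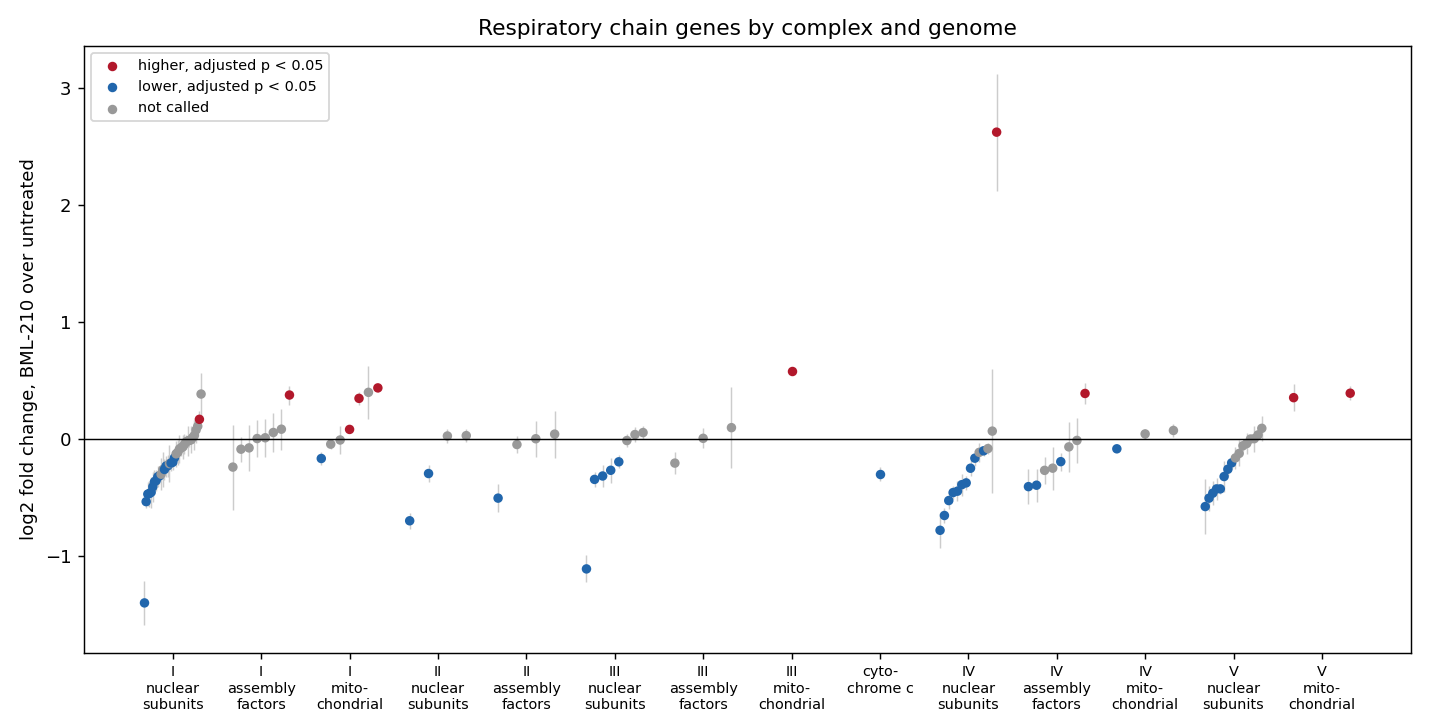
Log2 fold change (BML-210 over untreated, vertical axis) of each tested member, with its standard error as a grey bar, grouped along the horizontal axis by complex and by kind of gene and sorted within each group. Blue points are the 48 members called lower, red points the 10 called higher and grey points the 56 not called. Blue points fill the lower end of the nuclear subunit columns of all 5 complexes, and mitochondrial genes lie near or above 0.

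Within the nuclear set, subunits and assembly factors differed in their counts. Of 77 tested nuclear subunits 41 were lower and 2 higher, with a median log2 fold change of -0.21. Of 23 tested assembly factors 4 were lower and 2 higher, with a median of -0.05. The subunits that carry catalytic or core functions (the core of complex I, the catalytic subunits of II and III, and the head and central stalk of complex V) were lower in 4 of 14 cases with a median of -0.01. The other nuclear subunits were lower in 37 of 63 cases with a median of -0.23. Over all tested genes 23.5% were lower and 22.9% higher. Of the assembly factors 17.4% were lower, and of the catalytic or core subunits 28.6%, both near the share of all tested genes. The share was 53.2% for all nuclear subunits and 58.7% for the other ones. These are counts and shares over genes that share libraries and scaling, and no test of one class against another was made. The classes were not matched for coding length. Of all tested nuclear coding genes with up to 300 coding bases 38.4% were lower, and the part of length in these shares was not tested.

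**Figure D2:**
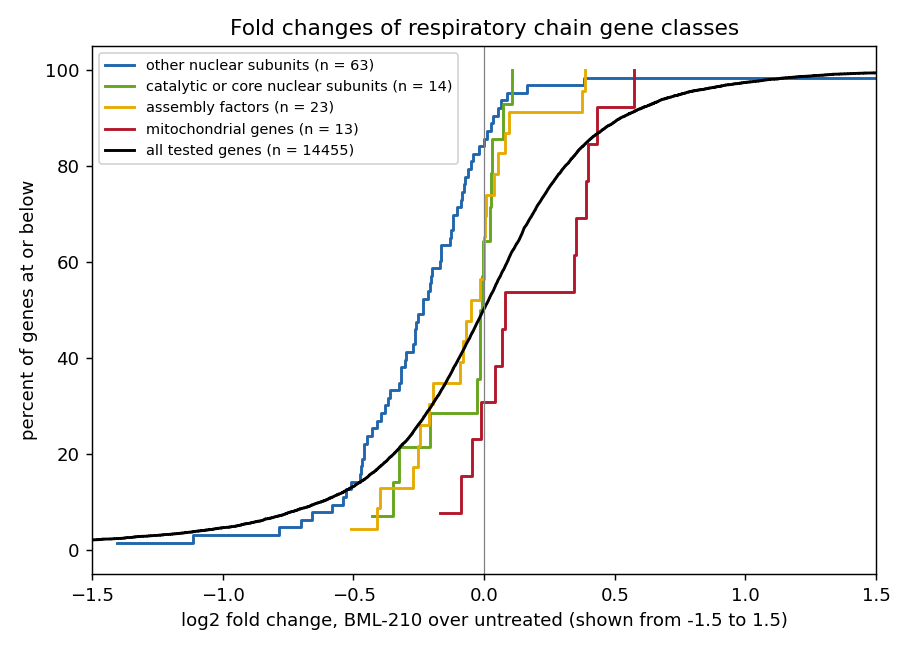
Percent of genes (vertical axis) whose log2 fold change, BML-210 over untreated, is at or below the value on the horizontal axis, for 4 classes of respiratory chain genes and for all 14455 tested genes (black). The line of the 63 other nuclear subunits runs to the left of the black line through the middle of the range, that of the 14 catalytic or core subunits is steep near 0, and that of the 13 mitochondrial genes runs to the right of it over most of the range. The axis ends at -1.5 and 1.5, which leaves out Cox6a2 among the members.

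Promoter windows of 6 nuclear members that were called are given here to show the letters counted below; they were chosen after their values were seen and are not the members with the smallest p-values. Shown are 4 members that were lower (Ndufb3, Uqcrh, Sdhd and Cox6a1) and 2 assembly factors that were higher (Ndufaf4 and Cox10). Each window runs 5′ to 3′ on the gene's strand, from 250 bases before the transcription start to 50 bases after it, from RefSeq on build GRCm38.p6. The Ndufb3 window is chr1:58586147-58586446 on the plus strand and that of Uqcrh is chr4:116075021-116075320 on the minus strand. The Sdhd window is chr9:50603800-50604099 and that of Cox6a1 is chr5:115348909-115349208, both on the minus strand. The Ndufaf4 window is chr4:24897833-24898132 on the plus strand and that of Cox10 is chr11:64079423-64079722 on the minus strand. Capitals mark matches, on either strand, to letters bound by factors long known to act on respiratory chain promoters: GCGC then any base then TGCGC of NRF1, CCGGAAG of GABPA and other ETS factors, AANATGGCG of YY1 and TCAAGGTCA of the estrogen-related receptors.
Ndufb3: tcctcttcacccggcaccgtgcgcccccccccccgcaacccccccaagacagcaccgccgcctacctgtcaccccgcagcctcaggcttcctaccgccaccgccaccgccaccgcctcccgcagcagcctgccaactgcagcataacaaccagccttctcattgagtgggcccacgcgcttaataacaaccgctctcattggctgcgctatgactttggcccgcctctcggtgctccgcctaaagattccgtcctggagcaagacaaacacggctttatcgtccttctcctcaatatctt
Uqcrh: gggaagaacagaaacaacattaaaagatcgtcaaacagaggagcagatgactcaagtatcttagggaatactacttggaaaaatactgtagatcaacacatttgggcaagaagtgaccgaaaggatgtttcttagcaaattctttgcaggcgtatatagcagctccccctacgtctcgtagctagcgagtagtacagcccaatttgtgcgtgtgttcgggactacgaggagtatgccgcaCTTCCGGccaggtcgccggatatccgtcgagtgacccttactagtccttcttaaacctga
Sdhd: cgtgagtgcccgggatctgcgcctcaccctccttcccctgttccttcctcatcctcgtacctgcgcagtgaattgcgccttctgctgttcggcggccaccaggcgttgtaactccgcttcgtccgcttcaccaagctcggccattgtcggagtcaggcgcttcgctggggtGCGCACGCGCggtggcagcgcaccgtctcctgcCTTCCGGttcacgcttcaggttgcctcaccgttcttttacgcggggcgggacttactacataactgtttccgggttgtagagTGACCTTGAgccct
Cox6a1: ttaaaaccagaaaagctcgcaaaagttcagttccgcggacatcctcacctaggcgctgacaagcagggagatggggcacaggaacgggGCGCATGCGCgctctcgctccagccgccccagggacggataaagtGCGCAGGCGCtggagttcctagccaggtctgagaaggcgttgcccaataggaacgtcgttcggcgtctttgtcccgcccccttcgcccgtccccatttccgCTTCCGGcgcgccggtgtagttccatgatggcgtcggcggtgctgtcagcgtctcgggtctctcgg
Ndufaf4: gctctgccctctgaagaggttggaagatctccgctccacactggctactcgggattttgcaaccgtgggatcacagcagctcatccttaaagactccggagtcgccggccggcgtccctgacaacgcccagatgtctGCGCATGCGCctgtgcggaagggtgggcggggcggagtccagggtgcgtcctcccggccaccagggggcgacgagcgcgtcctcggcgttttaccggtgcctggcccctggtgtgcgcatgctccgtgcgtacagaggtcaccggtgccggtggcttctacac
Cox10: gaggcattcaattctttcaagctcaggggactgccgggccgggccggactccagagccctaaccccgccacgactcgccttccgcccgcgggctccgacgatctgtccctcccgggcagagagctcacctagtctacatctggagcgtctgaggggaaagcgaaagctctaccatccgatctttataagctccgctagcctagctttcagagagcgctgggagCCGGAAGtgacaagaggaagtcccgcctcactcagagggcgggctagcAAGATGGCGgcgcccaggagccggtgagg
The Ndufb3 window holds none of these letters, and neither does that of Ndufv3, which was also lower and is not printed. The Uqcrh window holds the ETS letters, the Cox6a1 window the NRF1 letters at 2 places and the ETS letters, and the Sdhd window the letters of NRF1, ETS and the estrogen-related receptors. Of the assembly factors that were higher, Ndufaf4 holds the NRF1 letters and Cox10 those of ETS and YY1.

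Over all nuclear members, 84 of the 101 tested ones and 9865 of the 14425 tested nuclear gene names matched a RefSeq promoter. The NRF1 letters occurred in 25.0% of the tested members' promoters, in 11.5% of those of all tested genes and in 5.19% of all 27025 genes with a promoter entry. The ETS letters occurred in 29.8%, 20.6% and 9.93% of these sets in the same order, and the YY1 letters in 15.5%, 6.06% and 2.76%. Members that were lower and members that were not held them at different rates in either direction. The NRF1 letters stood in 8 of 39 promoters of members called lower and in 13 of 45 of the other tested members. The ETS letters stood in 13 of 39 and 12 of 45, and the YY1 letters in 3 of 39 and 10 of 45. The letters of the estrogen-related receptors stood in 2 of 39 and 0 of 45, against 0.324% of all tested genes. A site of MEF2, a factor that class IIa histone deacetylases bind, was found in 0 of the 84 members' windows and in 2.13% of those of all tested genes. The 76 matches in the members' windows overlap each other in 0 cases, and a match is a string of letters in a window, not a measured binding site.

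Complex I accepts electrons from NADH. Of its 35 tested nuclear subunits 16 were lower and 1 higher, with a median log2 fold change of -0.20. Those lower made up 45.7%, against 23.5% of all tested genes. Accessory subunits, 29 of the 35 tested, made up 15 of the 16. Of these Ndufa6, Ndufa9, Ndufa12, Ndufb5 and Ndufb7, named after their values were seen, lost their calls without untreated replicate 2. Their log2 fold changes in that fit were -0.34 to -0.14. The accessory membrane-arm subunit Ndufb3 (chr1:58586384-58595964, mm10) had the largest fall of all members. It had 3.40 and 3.35 CPM in the BML-210 libraries, against 8.62 and 9.30 CPM in the untreated libraries, from 45 to 142 counts per library. The groups did not overlap, and the log2 fold change was -1.40 with a standard error of 0.19 (edgeR adjusted p = 6.93e-09).

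Ndufv3, the small accessory subunit of the NADH-oxidising module, was well covered. It had 69.7 and 70.3 CPM, against 97.8 and 106 CPM, a difference of -0.54 ± 0.05 on the log2 scale (SE; adjusted p = 2.94e-13 by edgeR). Ndufb9, an accessory subunit of the membrane arm, had 16.0 and 18.1 CPM, against 22.7 and 24.9 CPM (log2 fold change -0.48). Ndufa7, an accessory subunit of the peripheral arm, had 35.4 and 34.4 CPM, against 44.8 and 42.01 CPM (log2 fold change -0.32). In each of these 3 genes both BML-210 libraries lay below both untreated ones.

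Of the tested core subunits of complex I 16.7% were lower, against 51.7% of its accessory subunits and 23.5% of all tested genes. Of 6 tested nuclear core subunits 1 was lower, Ndufv1, which binds NADH and the flavin and is named here after its value was seen. Ndufv1 had 41.4 and 45.1 CPM, against 49.5 and 50.7 CPM, a log2 fold change of -0.21 (edgeR adjusted p = 0.00779), and without BML-210 replicate 1 it was not called (-0.15, edgeR adjusted p = 0.15). Ndufs1 and Ndufv2, which carry iron-sulphur centres, had log2 fold changes of 0.11 and -0.03 and did not pass the test (edgeR adjusted p = 0.0593 and 0.749).

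A single nuclear subunit of complex I was higher, the membrane-arm accessory subunit Ndufc2, and it rested on 1 library. It had 73.4 and 59.5 CPM, against 59.4 and 58.9 CPM, a difference of 0.16 ± 0.07 on the log2 scale (SE; adjusted p = 0.0441 by edgeR). The first BML-210 library alone was high, and without it the log2 fold change was 0.01 (edgeR adjusted p = 0.966). The 8 assembly factors of complex I included none that was lower. Ndufaf4, which acts early in building the membrane and peripheral arms, was higher with 36.3 and 37.5 CPM, against 30.2 and 26.5 CPM (log2 fold change 0.37 ± 0.08, edgeR adjusted p = 0.00011). Ndufaf7, a methyltransferase, had 19.5 and 17.3 CPM, against 19.2 and 19.9 CPM, and did not pass the test (edgeR adjusted p = 0.516).

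Complex II, succinate dehydrogenase, has 4 nuclear subunits whose membrane-anchor subunits were lower while its catalytic subunits did not pass the test. Sdhc (chr1:171127165-171150603, mm10), a haem-binding anchor subunit, had 36.3 and 37.0 CPM, against 57.6 and 61.8 CPM, a difference of -0.70 ± 0.07 on the log2 scale (SE; adjusted p = 1.09e-13 by edgeR). Sdhd, the other anchor subunit, whose promoter is printed above, had 37.5 and 38.3 CPM, against 45.7 and 47.6 CPM, a difference of -0.30 ± 0.07 on the log2 scale (SE; adjusted p = 0.00027 by edgeR). The flavoprotein Sdha had 80.4 and 82.2 CPM, against 78.4 and 81.6 CPM. The iron-sulphur subunit Sdhb had 56.4 and 58.3 CPM, against 56.7 and 56.3 CPM. The groups overlapped for both catalytic subunits, whose log2 fold changes were 0.03 ± 0.05 and 0.02 ± 0.06 (SE). Neither passed edgeR's test (adjusted p = 0.729 and 0.795).

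Of the 4 assembly factors of complex II, Sdhaf3, which helps insert the iron-sulphur clusters of Sdhb, was lower. It had 12.4 and 12.5 CPM, against 17.2 and 18.2 CPM, a difference of -0.51 ± 0.12 on the log2 scale (SE; adjusted p = 0.000276 by edgeR). Sdhaf2, which attaches the flavin to Sdha, had 36.4 and 37.1 CPM, against 38.4 and 37.7 CPM, and did not pass the test (edgeR adjusted p = 0.609).

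Complex III passes electrons from ubiquinol to cytochrome c, and 5 of its 8 tested nuclear subunits were lower. That was 62.5%, against 23.5% of all tested genes. Uqcrh (chr4:116066965-116075071, mm10), the acidic hinge subunit next to cytochrome c1, had 10.1 and 11.9 CPM in the BML-210 libraries, against 22.6 and 25.1 CPM in the untreated libraries. It differed by -1.11 ± 0.12 on the log2 scale (SE; adjusted p = 2.80e-12 by edgeR), and the groups did not overlap. The Rieske iron-sulphur subunit Uqcrfs1 had 44.3 and 49.1 CPM, against 59.6 and 59.6 CPM, a difference of -0.35 ± 0.06 on the log2 scale (SE; adjusted p = 5.19e-06 by edgeR).

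The core protein Uqcrc2, which is built like a processing peptidase, had 61.7 and 64.9 CPM, against 74.1 and 71.2 CPM (log2 fold change -0.20). The small subunit Uqcr10 had 21.4 and 20.0 CPM, against 24.7 and 27.0 CPM (log2 fold change -0.32). Uqcr11, named after its value was seen, had 16.1 and 16.2 CPM, against 20.3 and 18.5 CPM (log2 fold change -0.27). Uqcrc2 was not called without BML-210 replicate 1 (edgeR adjusted p = 0.0587), and Uqcr10 not without BML-210 replicate 2 or untreated replicate 2 (edgeR adjusted p = 0.0617 in both). Uqcr11 was called in 1 of the 4 fits with a library left out, the one without untreated replicate 2, and its edgeR adjusted p was 0.106, 0.103 and 0.246 in the others. Without BML-210 replicate 1, and likewise without BML-210 replicate 2, the number of complex III subunits called lower was 3. Cyc1, the cytochrome c1 of the complex, had 75.7 and 77.6 CPM, against 76.7 and 78.6 CPM, a log2 fold change of -0.02 that did not pass the test (edgeR adjusted p = 0.829). Of the 3 assembly factors, which act on the mitochondrial-encoded cytochrome b, 0 were called. Uqcc2 came nearest, with 24.3 and 23.2 CPM, against 26.2 and 28.9 CPM (log2 fold change -0.21, edgeR adjusted p = 0.0539), and Uqcc3 had 1.14 to 2.95 CPM in the BML-210 libraries and 1.52 to 2.33 CPM in the untreated ones.

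Cycs, the somatic cytochrome c that shuttles electrons from complex III to complex IV, had 51.3 and 49.6 CPM, against 62.3 and 61.9 CPM. It differed by -0.30 ± 0.06 on the log2 scale (SE; adjusted p = 3.37e-05 by edgeR), and the groups did not overlap. Annotated copies of Cycs that are at least 99% identical over 100 bases or more held 8 to 87 counts over the 4 libraries where they held any, so that a few of its reads may be counted elsewhere.

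**Figure D3:**
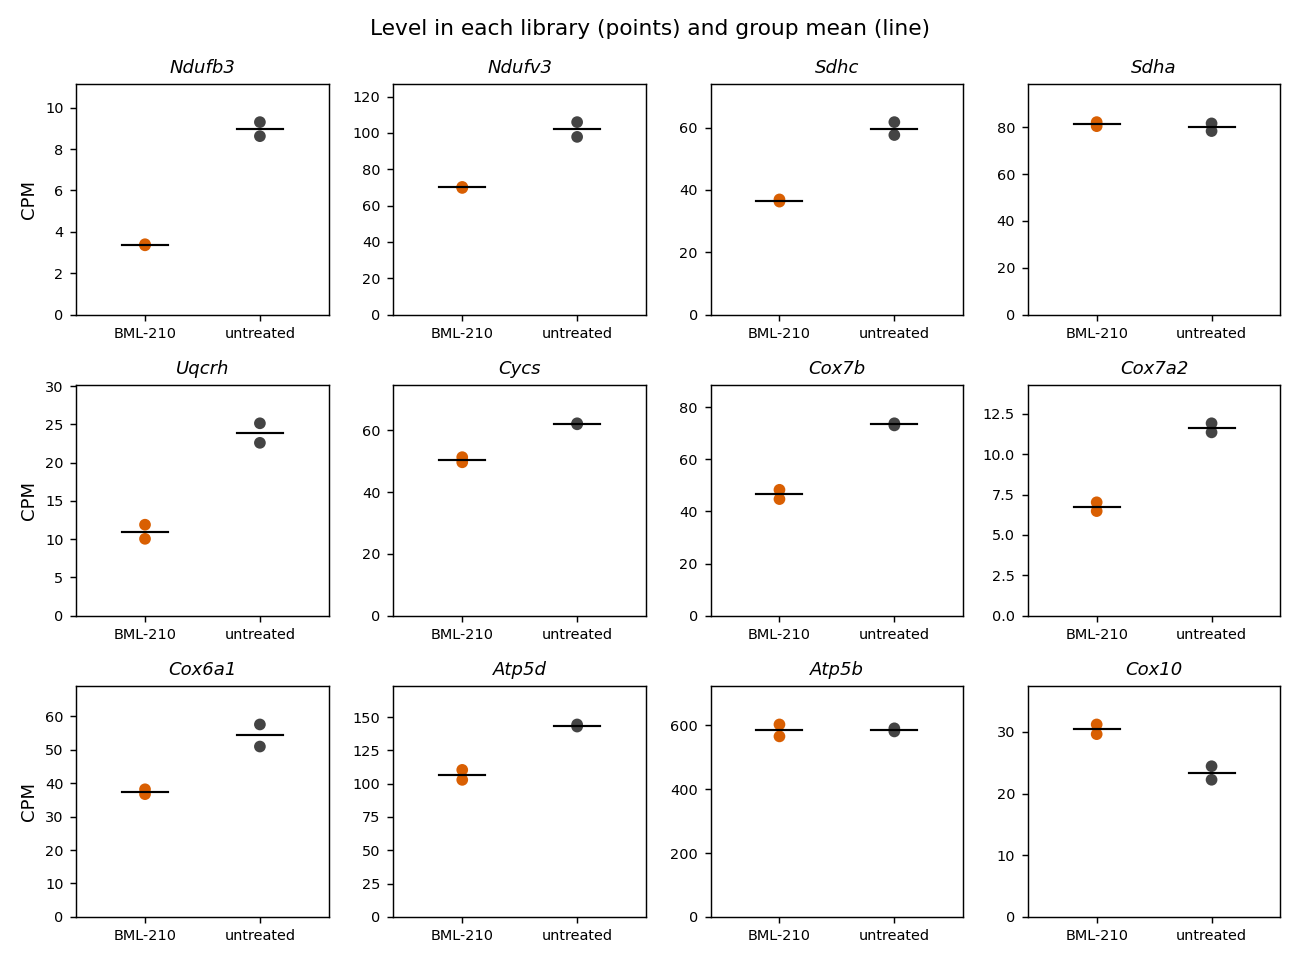
CPM of 12 nuclear members (vertical axis, from 0 in each panel) in the 2 libraries labelled BML-210 (orange) and the 2 labelled untreated (grey), with the group mean as a line. Sdha and Atp5b overlap between the groups, Cox10 is higher in both BML-210 libraries, and the other 9 are lower in both.

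With all 4 libraries complex IV, cytochrome c oxidase, had the largest share of lower subunits: 10 of 14 tested nuclear subunits, with a median log2 fold change of -0.32. Over all tested genes 23.5% were lower. Of the 10, Cox5b, Cox6c and Cox7a2l lost their calls without untreated replicate 2, with log2 fold changes of -0.12, -0.14 and -0.09. Cox5b also lost it without BML-210 replicate 1 (-0.06). Cox5b and Cox6c are named after their values were seen. Among the 11 accessory subunits of the ubiquitous enzyme 9 were lower. In all 11 both BML-210 libraries lay below both untreated libraries, against 36.1% of all tested genes. Cox7b, a small membrane subunit, had 44.7 and 48.3 CPM, against 73.8 and 73.0 CPM, a difference of -0.66 ± 0.06 on the log2 scale (SE; adjusted p = 3.17e-14 by edgeR). Cox6b1, which links the monomers on the intermembrane side, had 57.6 and 52.5 CPM, against 76.3 and 75.01 CPM (log2 fold change -0.46). Cox4i1, the subunit that binds ATP and adjusts the enzyme to it, had 54.6 and 57.8 CPM, against 72.0 and 74.4 CPM (log2 fold change -0.38). Ndufa4, once assigned to complex I and since placed in complex IV, had 21.2 and 21.5 CPM, against 26.4 and 29.9 CPM (log2 fold change -0.39). In each of these 4 genes both BML-210 libraries lay below both untreated ones. Cox8a, a small membrane subunit, had the highest level per kb of exon among tested nuclear members, 180.4 CPM in the BML-210 libraries and 192 CPM in the untreated ones. It had 110.1 and 113 CPM, against 117 and 121 CPM, a log2 fold change of -0.09 that did not pass the test (edgeR adjusted p = 0.121).

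Several complex IV subunits come in a ubiquitous and a heart or muscle form, and both forms of subunit VIa were tested. The ubiquitous Cox6a1 had 36.7 and 38.2 CPM, against 51.0 and 57.6 CPM, a difference of -0.53 ± 0.07 on the log2 scale (SE; adjusted p = 2.78e-09 by edgeR). The heart and muscle isoform Cox6a2 (chr7:128205435-128206387, mm10) had 2.34 and 1.42 CPM, against 0.364 and 0.218 CPM. Its counts were low, 31 and 20 in the BML-210 libraries and 6 and 3 in the untreated ones, the last at the floor of detection. It was called higher, but it passed the low-count filter through the BML-210 libraries alone, so no fold change or p is given for it. Per kb of exon, Cox6a2 reached 2.77 CPM in the BML-210 libraries and 0.428 CPM in the untreated ones, against 53.3 CPM and 77.3 CPM for Cox6a1, so that the ubiquitous isoform stayed the higher in both groups.

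For subunit VIIa the ubiquitous Cox7a2 had 7.02 and 6.48 CPM, against 11.4 and 11.9 CPM, a difference of -0.78 ± 0.15 on the log2 scale (SE; adjusted p = 1.72e-05 by edgeR). The muscle form Cox7a1 was not tested and had 9 and 7 counts, against 16 and 8. The related Cox7a2l, which holds complexes III and IV together in supercomplexes, had 159 and 150.2 CPM, against 164 and 168 CPM. Its log2 fold change of -0.10 was called (edgeR adjusted p = 0.0302) but not without BML-210 replicate 2 or without untreated replicate 2 (edgeR adjusted p = 0.378 and 0.109). Cox4i2, Cox6b2 and Cox8b, isoforms of lung, testis and muscle, had 0 counts in all 4 libraries. Ndufa4l2, the hypoxia-induced form of Ndufa4, had 0.453 and 0.926 CPM, against 0.425 and 0.945 CPM.

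Assembly factors of complex IV moved both ways: 3 of 8 tested were lower and 1 was higher. These were 37.5% and 12.5%, against 23.5% lower and 22.9% higher over all tested genes. Cox10, which makes haem O on the way to the haem A of the enzyme, had 31.2 and 29.6 CPM, against 22.2 and 24.4 CPM, a difference of 0.39 ± 0.09 on the log2 scale (SE; adjusted p = 0.000256 by edgeR). Cox15, the next enzyme of that path, had 33.3 and 30.9 CPM, against 38.1 and 35.3 CPM, a log2 fold change of -0.20 (edgeR adjusted p = 0.0333). The copper-delivery proteins Cox17 and Cox19 had log2 fold changes of -0.41 ± 0.15 and -0.40 ± 0.14 (SE; edgeR adjusted p = 0.0236 and 0.018). Cox17 overlapped between the groups, with 8.16 and 12.2 CPM, against 15.3 and 11.6 CPM, whereas Cox19 did not, with 8.31 and 9.40 CPM, against 11.4 and 12.1 CPM. Cox15 and Cox17 are named after their values were seen. Each of the 3 lower ones lost its call without 2 of the 4 libraries, while Cox10 kept its call without any of them. Cox15 missed it without BML-210 replicate 2 or untreated replicate 1 (edgeR adjusted p = 0.261 and 0.277). Cox17 missed it without BML-210 replicate 1 or untreated replicate 1 (edgeR adjusted p = 0.462 and 0.397). Cox19 missed it without BML-210 replicate 1 or untreated replicate 2 (edgeR adjusted p = 0.147 and 0.0785).

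Complex V, the ATP synthase, was lower in 8 of its 16 tested nuclear subunits, with a median log2 fold change of -0.19. Without untreated replicate 2 the number was 5. In the head and stalk, Atp5d, the delta subunit of the central stalk, had 102.9 and 110.4 CPM, against 144 and 143 CPM, a difference of -0.43 ± 0.05 on the log2 scale (SE; adjusted p = 3.19e-12 by edgeR). The catalytic beta subunit Atp5b, at 566 and 603 CPM against 581 and 591 CPM, had a difference of -0.0037 ± 0.03 on the log2 scale (SE; adjusted p = 0.933 by edgeR). The gamma subunit Atp5c1, at 148 and 153 CPM against 150.1 and 145 CPM, had a difference of 0.03 ± 0.04 on the log2 scale (SE). Of the 4 tested genes of the head and central stalk 2 were lower, Atp5d and Atp5e. Atp5e lost its call without BML-210 replicate 2, untreated replicate 1 or untreated replicate 2. Atp5b, Atp5c1 and Atp5e are named after their values were seen.

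In the peripheral stalk, Atp5j had 16.2 and 19.1 CPM, against 24.9 and 24.1 CPM, a difference of -0.47 ± 0.10 on the log2 scale (SE; adjusted p = 0.00012 by edgeR). In the membrane part, the small subunit Atp5mpl had 16.4 and 14.5 CPM, against 22.2 and 21.6 CPM, a difference of -0.51 ± 0.11 on the log2 scale (SE; adjusted p = 7.16e-05 by edgeR). Subunit c, which forms the rotor ring, is encoded by 3 nuclear genes whose mature products are identical. Of these Atp5g3 was lower, with 62.9 and 62.0 CPM, against 72.6 and 77.4 CPM (log2 fold change -0.26 ± 0.06, edgeR adjusted p = 8.96e-05). Atp5g1, with 16.2 and 16.7 CPM against 16.9 and 15.9 CPM, and Atp5g2, with 17.6 and 19.4 CPM against 17.7 and 23.0 CPM, did not pass the test (edgeR adjusted p = 0.997 and 0.37). Per kb of exon, Atp5g3 was the highest of the 3 in both groups, at 28.6 CPM in the BML-210 libraries and 34.4 CPM in the untreated ones. Atp5g2 followed at 11.04 CPM in the BML-210 libraries and 12.2 CPM in the untreated ones, and Atp5g1 at 3.35 CPM in both.

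The mitochondrial genome showed no common direction. In the order of the genome, mt-Nd1 and mt-Nd2, core proton-pumping subunits of complex I, were higher. The mt-Nd1 level was 4719 and 4528 CPM, against 3595 and 3251 CPM, a difference of 0.43 ± 0.04 on the log2 scale (SE; adjusted p = 2.52e-08 by edgeR). The mt-Nd2 level was 5164 and 5016 CPM, against 4253 and 3765 CPM, a difference of 0.34 ± 0.06 on the log2 scale (SE; adjusted p = 0.00329 by edgeR). With limma-voom neither was called (adjusted p = 0.0506 for mt-Nd1 and 0.096 for mt-Nd2). Cytochrome b, mt-Cytb, at the other end of the heavy-strand transcript, had the largest change of the 13, with 3585 and 3464 CPM, against 2468 and 2263 CPM (log2 fold change 0.58 ± 0.03, edgeR adjusted p = 6.81e-20).

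The most abundant gene, mt-Co1, the catalytic subunit of complex IV, was slightly lower. It had 25993 and 25530 CPM, against 27961 and 26775 CPM, a difference of -0.09 ± 0.03 on the log2 scale (SE; adjusted p = 0.0104 by edgeR). It took 48.3% and 49.0% of the counts of the 13 genes in the BML-210 libraries, against 52.8% and 54.2% in the untreated ones. The call for mt-Co1 was lost without either BML-210 library (edgeR adjusted p = 0.148 without replicate 1 and 0.314 without replicate 2). The complex I subunits mt-Nd4, with 4548 and 4354 CPM against 4402 and 4028 CPM, and mt-Nd5, with 9368 and 8850 CPM against 9865 and 8965 CPM, overlapped between the groups. Their log2 fold changes were 0.08 and -0.05, and edgeR's adjusted p was 0.0397 for mt-Nd4 and 0.338 for mt-Nd5. Without untreated replicate 2, mt-Nd4 had 0.02 (edgeR adjusted p = 0.596) and mt-Nd5 -0.12 (edgeR adjusted p = 1.70e-09), and mt-Nd4 was not called without BML-210 replicate 1 either (edgeR adjusted p = 0.481).

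**Figure D4:**
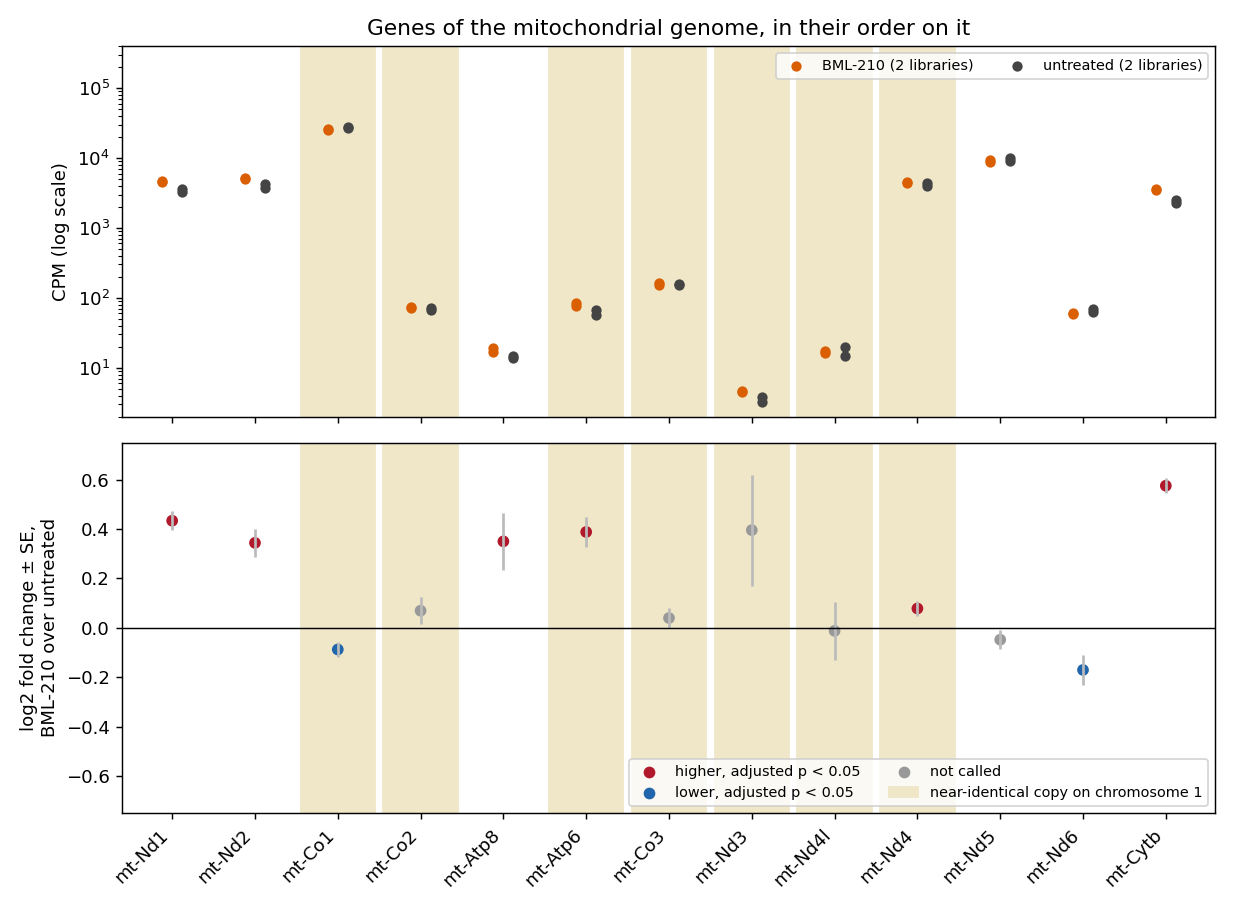
CPM on a log axis (upper panel) and log2 fold change with standard error, BML-210 over untreated (lower panel), of the 13 mitochondrial genes in their order on the genome. Shading marks the 7 genes that share at least 99% of their sequence over 100 bases or more with an annotated nuclear copy on chromosome 1. The first 2 genes and the last, mt-Cytb, lie highest in the lower panel among genes with over 1000 CPM, and mt-Co1 and mt-Nd6 are the 2 called lower.

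The remaining 7 mitochondrial genes had far lower counts. The ATP synthase subunits were higher: mt-Atp6 had 83.5 and 77.3 CPM, against 56.9 and 66.4 CPM (log2 fold change 0.39 ± 0.06, edgeR adjusted p = 1.48e-07). The overlapping mt-Atp8 had 19.2 and 16.7 CPM, against 13.6 and 14.5 CPM (log2 fold change 0.35 ± 0.12, edgeR adjusted p = 0.0104), a call lost without BML-210 replicate 1 or untreated replicate 1 (edgeR adjusted p = 0.179 and 0.0845). The complex IV subunits mt-Co2, at 73.8 and 72.2 CPM against 71.3 and 67.6 CPM, and mt-Co3, at 165 and 155 CPM against 157 and 153 CPM, did not pass the test. The complex I subunits mt-Nd3, at 4.46 and 4.70 CPM against 3.22 and 3.78 CPM, and mt-Nd4l, at 16.5 and 17.7 CPM against 14.7 and 20.1 CPM, did not either. The light-strand gene mt-Nd6 had 57.9 and 60.3 CPM, against 63.5 and 70.0 CPM (log2 fold change -0.17 ± 0.06, edgeR adjusted p = 0.015). Its call was lost without BML-210 replicate 1 or untreated replicate 2 (edgeR adjusted p = 0.118 and 0.266). Since mt-Nd6 overlaps mt-Nd5 on the other strand and strandedness of the counting is not given, reads in the stretch that they share cannot be told apart.

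Copies of mitochondrial DNA in the nuclear genome limit what these low values say. For mt-Co2, mt-Atp6, mt-Co3, mt-Nd3 and mt-Nd4l, annotated copies on chromosome 1 that are at least 99% identical cover 98.99% to 99.9% of the gene. They cover 63.6% of mt-Nd4 and 31.3% of mt-Co1. Only annotated genes were searched, so an unannotated copy, of mt-Atp8 for example, would not be seen. The copy of mt-Atp6 ends at chr1:24614651 and that of mt-Co2 begins at chr1:24614885, and unannotated sequence between them was not searched. The copy of mt-Co2, Gm28661, held 6687 and 6688 counts in the BML-210 libraries and 6906 and 4926 in the untreated ones, against 977 and 1014, and 1174 and 930, on mt-Co2 itself. When each copy was added to its mitochondrial gene, 8 of the 13 genes were higher and 2 lower, with a median log2 fold change of 0.29; this alternative was chosen after seeing the data. The genes mt-Nd1, mt-Nd2, mt-Nd5 and mt-Cytb have no such copy and over 30000 counts in every library, and of these 3 were higher and 0 lower, while limma-voom called mt-Cytb alone among them higher.

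As a share of all counts the mitochondrial messages did not separate the groups. The 13 genes took 5.41% and 5.25% of counts in the BML-210 libraries, against 5.27% and 4.91% in the untreated ones (exact permutation test, two-sided, p = 0.667; 2 against 2 libraries cannot go below 0.333). The nuclear members took 0.392% and 0.396%, against 0.429% and 0.437%, and the groups did not overlap (exact permutation p = 0.333). The ratio of mitochondrial to nuclear member counts was 13.8 and 13.2 in the BML-210 libraries, against 12.3 and 11.2 in the untreated ones (exact permutation p = 0.333, the smallest this design allows). Shares depend on other abundant RNAs: Gm26917 took 4.04% and 4.45% of counts, against 5.52% and 6.41%, and Malat1, a nuclear RNA used here as a sign of RNA quality, 1.13% and 1.13%, against 1.68% and 1.64%. Of the 6 genes listed for RNA length and quality 5 were higher, among them Kcnq1ot1 (log2 fold change 0.78) and mt-Rnr1 (0.30), and 1, Malat1, was lower (-0.58). Another of the 5, Xist, had 1.21 and 0.997 CPM, against 0.304 and 0.581 CPM. Xist passed the low-count filter through the BML-210 libraries alone, so no fold change or p is given for it. The part of these RNAs in the results above was not tested.

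Fold changes were lowest among the shortest members. Among the nuclear members with up to 300 coding bases 17 of 27 were lower, with a median log2 fold change of -0.32. The 216 tested nuclear coding genes of that length had a median of -0.19, and 38.4% of them were lower. At 301 to 400 bases the members' median was -0.19 (n = 20), against -0.07 for all 367 genes of that length, and at 401 to 500 bases it was -0.16 (n = 15), against -0.04. At 501 to 700 bases 7 of 15 members were lower, with a median of -0.17, and at 701 to 1000 bases the 11 members had a median of -0.02 and 1 was lower. At 1001 to 1500 bases 5 of 10 were lower, with a median of -0.14, so that the order was not even across the classes. Of all tested nuclear coding genes 27.0% were lower at 501 to 700 bases, 23.2% at 701 to 1000 and 27.5% at 1001 to 1500. Members called lower had a median coding length of 381 bases, against 453 bases for the other tested nuclear members. Across the 101 nuclear members the log2 fold change had a Pearson r of 0.20 and a Spearman rho of 0.36 with log2 coding length, given as a description because the genes share libraries and are not independent. With a smooth trend on exonic length removed, 41 of the 46 members called lower were still called lower, and the nuclear median was -0.14.

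**Figure D5:**
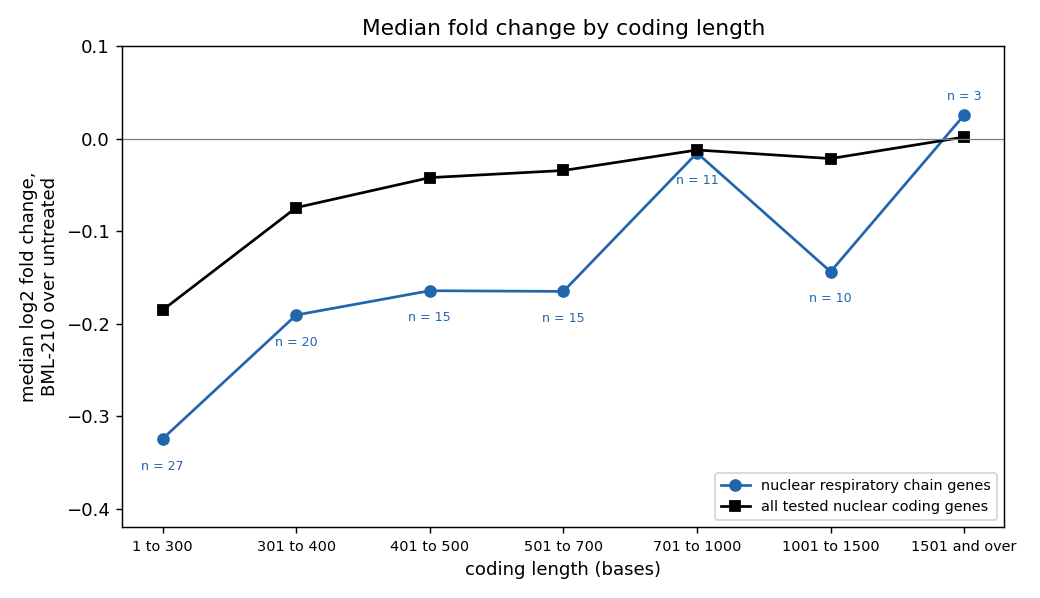
Median log2 fold change, BML-210 over untreated (vertical axis), by class of coding length in bases (horizontal axis) for the nuclear respiratory chain genes (blue circles, with their number) and for all tested nuclear coding genes (black squares). Both lines are lowest for the shortest genes, and the blue line lies below the black one in every class up to 1500 bases.

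Some members could not be assessed. Of the 134 entries 20 were not tested, among them the 5 second entries and 5 annotated gene copies with at most 9 counts over the 4 libraries. Ndufs3, Uqcrc1 and Atp5a1, subunits that every respiring cell uses, had 1 or 2 counts over the 4 libraries, and so did the assembly factor Cox20. Each of these 4 has a second entry on an alternate scaffold of the assembly. Of 618 gene names placed both on a chromosome and on such a scaffold, 96.8% had fewer than 10 counts over the 4 libraries, against 66.1% of the other 54758 names, so the low values of these 4 members are no measure of their expression. The other untested entries were Cox7a1 and the isoforms Cox4i2, Cox6b2, Cox7b2, Cox8b and Cox8c, with 0 to 40 counts in all. Of the 101 tested nuclear members, 25 have an exon overlapping another gene with 10 or more counts, and 12 have an annotated copy that is at least 99% identical over 100 bases or more. Of the 46 members called lower 30 have neither, as do all 4 that were called higher. Nuclear members named above with such an overlap, on the opposite strand, are Atp5d, Atp5j, Cox4i1, Cox6c, Cox15, Ndufb5, Ndufs1, Sdhaf2, Uqcrc2 and Ndufa4l2. Those with a near-identical copy are Atp5g1, Atp5g2, Cox5b, Cox7a2l, Cycs and Ndufa12. The values of all these genes are uncertain to that extent.

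Genes around the chain were read from lists of related functions, beside 22.9% higher and 23.5% lower over all tested genes. Assembly factors with other names stood at 16.1% higher and 19.4% lower, and ubiquinone synthesis genes at 7.69% and 23.1%. Of the TCA cycle genes 21.4% were higher. Among these lists only the TCA cycle genes, with 7 of 14 lower, lay above a share of all tested genes. Of 31 further assembly factors with other names 5 were higher and 6 lower, among them Sco1, which delivers copper to complex IV (log2 fold change 0.48), Tmem126a (0.33) and Timmdc1 (-0.29), which both help build complex I. Of 13 ubiquinone synthesis genes 1 was higher and 3 lower. Pdss1, which makes the isoprenoid tail, had 27.6 and 29.8 CPM, against 16.9 and 16.3 CPM (log2 fold change 0.79). The atypical kinases Coq8a and Coq8b had log2 fold changes of -1.11 and -0.76. Of 14 genes of the TCA cycle, which supplies NADH and succinate, 3 were higher and 7 lower, with malate dehydrogenase Mdh2 at -0.44, citrate synthase Cs at -0.32 and the dihydrolipoamide dehydrogenase Dld at 0.31.

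The genes that copy the mitochondrial genome and process its transcripts were read in the same way, beside 22.9% higher and 23.5% lower over all tested genes. The RNA processing genes stood at 55.6% and 16.7%, and those of DNA transcription and replication at 17.6% and 5.88%. Of 18 mitochondrial RNA processing genes 10 were higher and 3 lower, with a median log2 fold change of 0.23. Lrpprc, which stabilises mitochondrial messages, had 182 and 188 CPM, against 156 and 159 CPM (log2 fold change 0.23). Ptcd3, a protein of the small mitochondrial ribosomal subunit, had 0.45 and the RNA-degrading Pnpt1 0.30, while Fastkd1 had -0.47. Of 17 genes of mitochondrial DNA transcription and replication 3 were higher and 1 lower. The transcription and packaging factor Tfam had 33.1 and 30.1 CPM, against 23.6 and 26.5 CPM (log2 fold change 0.34), a call that missed the threshold without untreated replicate 1 (edgeR adjusted p = 0.0505). Mgme1, a nuclease of mitochondrial DNA, had 0.84, Mterf3 0.35 and Mterf4 -0.38, the last a call lost without BML-210 replicate 2 or untreated replicate 1 (edgeR adjusted p = 0.407 and 0.29).

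Of 10 tested nuclear regulators of mitochondrial biogenesis 7 were higher and 2 lower, against 22.9% and 23.5% of all tested genes. Gabpb1, the partner of GABPA at ETS sites, had 55.8 and 55.0 CPM, against 37.1 and 38.0 CPM (log2 fold change 0.56 ± 0.07, edgeR adjusted p = 1.38e-10). The deacetylase Sirt1 had 71.7 and 70.9 CPM, against 50.2 and 47.2 CPM (log2 fold change 0.55), and the corepressor Ncor1 354 and 349.9 CPM, against 269 and 279 CPM (log2 fold change 0.36). Ppargc1a, the coactivator that drives respiratory chain genes in muscle and brown fat, was low in both groups, with 0.302 and 0.356 CPM, against 4.13 and 3.27 CPM. It is 1 of the 2 called lower, but it passed the low-count filter through the untreated libraries alone, so no fold change or p is given for it.

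The inner-membrane and import genes gave mixed counts. The cristae organisation genes stood at 13.3% higher and 26.7% lower, and the import and outer-membrane genes at 15.4% and 30.8%. Over all tested genes the shares were 22.9% and 23.5%. Of 15 cristae organisation genes 2 were higher, Phb2 (log2 fold change 0.25) and Immt (0.21), and 4 lower, among them the small subunit Micos10 (-0.58). Of 13 import and outer-membrane genes 2 were higher and 4 lower, with the channel Vdac3 at 0.37 and the receptor Tomm20 at -0.25. The small translocase subunit Tomm7 had 11.2 and 12.5 CPM, against 19.7 and 20.4 CPM (log2 fold change -0.75).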

How the data were processed

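Total RNA of 4 samples was sequenced as paired reads of 100 bases, per the labels' protocols. Raw read counts for every gene, deposited by the authors in 1 table, were used; they carry no normalisation, and exon coordinates stand beside them per the file headers. Per the submitters' processing notes the tools included bcl2fastq, STAR 2.5, featureCounts, Subread 1.5.1 and edgeR 3.20.8, on mm10; the settings for overlapping genes, strand and multi-mapping reads were not given in the sources used here. Columns were assigned through the library codes that the labels carry.

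The tests used edgeR 4.0.16 in R 4.3.3 (filterByExpr, TMM, glmQLFit with robust=TRUE, glmQLFTest on the group alone, 2 residual degrees of freedom, Benjamini-Hochberg over all tested genes, called below 0.05). Standard errors were taken as the absolute log2 fold change divided by the root of its F statistic. CPM use the TMM-scaled library size, and CPM per kb the exonic length in the table. Exon overlaps came from the deposited exon coordinates. Coding lengths and near-identical copies (BLAST 2.17.0) came from GENCODE M21 on the same assembly. The fitting steps were tested on simulated data.

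The members and lists were chosen with earlier results of these data known. Named genes are all mitochondrial members, per complex the 4 subunits and 2 assembly factors with the smallest adjusted p, those called against the majority or at 2-fold or more, paired isoforms and, per further list, the 3 with the smallest adjusted p and 1 called against its majority; other members named were chosen after their values were seen. Alternatives were RLE, upper-quartile and no factors, 2 other filters, genes with over 1% of counts or the mitochondrial genome left out, a length trend removed, a likelihood ratio test, DESeq2 1.42.0, limma-voom (limma 3.58.1), an adjusted p of 0.01, the replicate block, each library left out, and, added after seeing the data, the nuclear copies summed and DESeq2 on the filtered genes (the other DESeq2 fit has no low-count filter). Libraries of a group were not pooled, since their counts differed beyond sampling noise (chi-square per degree of freedom 1.76 for BML-210 and 2.70 for untreated).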

Additional observations from a re-analysis of the deposited data

How the results depend on the processing

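Under the alternatives tried, 0 of the called named genes changed direction. DESeq2 on the 14455 genes that passed the low-count filter, an alternative added after seeing the data, called the fewest nuclear members lower, 24. It called lower 22 nuclear subunits, 1 assembly factor, 6 subunits of complex I, 2 of complex III and 5 of complex V. Of the mitochondrial members it called 1 lower. In that fit all tested genes called higher numbered 2205 and all tested genes called lower 2130. DESeq2 over 32611 genes without that filter called 28 nuclear members lower, 26 nuclear subunits, 1 assembly factor, 8 subunits of complex I, 2 of complex III and 0 mitochondrial members lower. At an adjusted p below 0.01, 1 assembly factor and 0 mitochondrial members were lower. The number of mitochondrial members lower was 1 with genes over 1% of counts left out, 1 with the length trend removed and 1 with limma-voom, which called 3 of them higher. The median log2 fold change of nuclear members was -0.142 with the length trend removed and -0.196 with upper-quartile factors. The median log2 fold change of mitochondrial members was 0.211 with genes over 1% of counts left out, 0.128 with the length trend removed and 0.294 with the nuclear copies summed. With each library left out in turn, nuclear members lower numbered 36 to 41, nuclear subunits lower 31 to 37, mitochondrial members lower 0 to 2, complex III subunits lower 3 to 4 and complex V subunits lower 5 to 8. Over the same fits the nuclear median was -0.198 to -0.144 and the mitochondrial median 0.052 to 0.215; without untreated replicate 2 it was 0.215 and without untreated replicate 1 it was 0.141.

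Of the 46 nuclear members called lower, 28 were also called lower by DESeq2 without the filter, 24 by DESeq2 with it, 37 by edgeR without it, 46 by limma-voom, 26 whichever library was left out, and 23 under every alternative. Deviations of libraries with the same replicate number had a correlation of 0.016, and no label says whether that number marks a pair. With the replicate block 49 nuclear members were lower, including all 46. The cause of these shifts was not tested.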

Other observations

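Ndufb1-ps, a name that the selection leaves out, held 161 and 202 counts in the libraries labelled BML-210, against 314 and 226 in those labelled untreated.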
